A study of Mus musculus with 6 samples.

Results

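RNA of primary mouse renal fibroblasts was examined for 8 chemokine genes, the 3 ligands of the receptor CXCR3 (Cxcl9, Cxcl10 and Cxcl11) and 5 genes usually counted among the homeostatic or membrane-bound chemokines (Cxcl12, Cxcl13, Cxcl14, Cxcl16 and Cx3cl1). Members were taken by gene symbol, and all 8 were found among the 34745 genes of the deposited table. The study sequenced total RNA from wild-type (WT) fibroblasts in 2 groups of 3 libraries, cultured alone or cocultured with Th17 cells, which are IL-17-producing helper T cells. The paper names Balb/c mice for its animal model, and its description of the fibroblast isolation gives no strain. In the coculture, Th17 cells sat in a 0.4 µm insert above the fibroblast layer for 24 h, so the cell types shared medium and only the fibroblasts below were collected. The Th17 cells had been induced from CD4+ T cells with antibodies against CD3 and CD28, IL-1β, IL-6, IL-23 and an antibody that neutralizes IFN-γ. Whether the lone fibroblasts had an empty insert, or received any of these reagents, was not given. No source stated if replicates were separate animals or wells, so p-values measure the spread between these libraries, which may be technical.

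Chemokines are small secreted proteins that guide leukocytes through G protein-coupled receptors. Cxcl9, Cxcl10 and Cxcl11 are classical interferon-induced genes, and their receptor CXCR3 is carried mainly by activated Th1 and CD8+ T cells and by NK cells. Cxcl12 and Cxcl13 are made by stromal cells and place hematopoietic cells and B cells in marrow and lymphoid tissue, while Cxcl16 and Cx3cl1 are made as transmembrane proteins that can be shed by proteases.

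The promoters of 4 members are shown because the transcripts of Cxcl9, Cxcl10 and Cxcl12 were lower in coculture and that of Cxcl14 was not. Each sequence is the 250 bases before the annotated transcription start in RefSeq on GRCm38.p6, written 5′ to 3′ on the strand of the gene. Capitals mark matches to the motifs described after the sequences. Cxcl9 lies at chr5:92328080-92328329 (minus strand), Cxcl10 at chr5:92348890-92349139 (minus), Cxcl12 at chr6:117168285-117168534 (plus) and Cxcl14 at chr13:56296552-56296801 (minus).
Cxcl9: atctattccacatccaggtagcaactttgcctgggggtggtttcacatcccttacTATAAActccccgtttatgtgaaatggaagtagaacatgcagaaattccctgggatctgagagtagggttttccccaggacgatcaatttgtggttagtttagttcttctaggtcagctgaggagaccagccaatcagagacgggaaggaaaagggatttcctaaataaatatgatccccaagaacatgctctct
Cxcl10: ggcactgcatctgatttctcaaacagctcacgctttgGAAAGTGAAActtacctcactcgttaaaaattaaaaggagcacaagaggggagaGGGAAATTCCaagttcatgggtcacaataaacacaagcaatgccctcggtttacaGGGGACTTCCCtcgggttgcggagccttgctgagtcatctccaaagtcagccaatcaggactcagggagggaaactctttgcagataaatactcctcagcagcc
Cxcl12: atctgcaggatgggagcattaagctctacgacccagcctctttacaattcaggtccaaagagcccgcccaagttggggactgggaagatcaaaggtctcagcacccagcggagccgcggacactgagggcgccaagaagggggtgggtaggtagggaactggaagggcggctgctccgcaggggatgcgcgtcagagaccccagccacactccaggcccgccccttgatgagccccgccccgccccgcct
Cxcl14: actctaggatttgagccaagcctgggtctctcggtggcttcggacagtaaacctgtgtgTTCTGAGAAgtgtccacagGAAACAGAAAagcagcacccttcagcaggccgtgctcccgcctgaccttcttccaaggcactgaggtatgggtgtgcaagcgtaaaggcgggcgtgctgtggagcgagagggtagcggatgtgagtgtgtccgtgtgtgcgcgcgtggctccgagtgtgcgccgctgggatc

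Both strands were searched for an interferon-stimulated response element core (GAAA and GAAA separated by 2 bases), an interferon-gamma-activated site core (TTCNNNGAA), an NF-kB core (GGG and TTTCC separated by 2 bases) and TATAAA. The response element core occurred in the promoters of Cxcl10, 213 to 204 bases before the start, and Cxcl14, 172 to 163 bases before the start. It was present in 2.98% of the 32544 mouse promoters of the same length. Cxcl14 also held the activated site core at 191 to 183 bases before the start, which 7.04% of all promoters held. The Cxcl9 window held neither interferon core and only TATAAA, at 195 to 190 bases before the start, against 12.3% of all promoters. No motif of the search was found in the Cxcl12 window. The NF-kB core was in none of the 6 member promoters searched and in 1.4% of all promoters. A looser NF-kB consensus, searched after these sequences had been seen and found in 7.28% of all promoters, matched Cxcl10 at 159 to 150 bases and, in overlapping matches on both strands, at 104 to 94 bases before the start. In the other windows, Cxcl13 and Cx3cl1 held only TATAAA, and RefSeq sequences were matched for 6 of the 8 members. These matches describe letters in a short window, and response elements of other sequence would have been missed by this search. Cxcl10, which was lower in coculture, and Cxcl14, which was not, both held the response element core.

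Library totals lay between 12050529 and 13209581 counts, and 16189 to 16625 genes had a count. CPM, a count relative to the library total, was scaled with TMM factors. All 10 fibroblast markers on the list were tested, with Col1a1, Col1a2, Col3a1 and Lum lower and Dcn higher. Their summed level was 36030 to 37890 CPM alone and 15930 to 17890 CPM in coculture. Col1a1, Col1a2 and Col3a1 made up most of that sum, with means of 15070, 12460 and 4364 CPM alone. Their means in coculture were 6228, 4621 and 961 CPM. Pdgfra, Pdgfrb, Thy1 and Vim were lower by adjusted p alone but under the fold limit, and Postn did not differ past the threshold. Of 13 T cell and Th17 markers, 2 were tested (Trac and Lck, of which Lck was lower, although not called without lone replicate 2 or without coculture replicate 3), with a sum of 5.82 to 8.69 CPM alone and 4.79 to 5.58 CPM in coculture, and Cd3d, Cd2, Cd5, Il17a, Il17f and Ccr6 were at 0 in all 6 libraries. Of 14 macrophage and dendritic cell markers, 6 were tested and 4 were lower (Adgre1, Ptprc, Lyz2 and Csf1r), with a summed level of 58.6 to 61.7 CPM alone and 20.3 to 21.2 CPM in coculture and Itgax at 0 throughout. Adgre1, a macrophage surface receptor, had 71, 47 and 55 counts alone and 0 in each cocultured library. With at least 10 counts in every library, 2 of the macrophage and dendritic cell markers were called lower. In bulk samples, fewer cells of a type and less RNA per cell cannot be told apart. Of 8 endothelial markers, 4 were tested, with Flt1 higher and Kdr lower, a sum of 123 to 131 CPM alone and 272 to 309 CPM in coculture and Emcn at 0. Flt1 made up most of that sum, with means of 117 CPM alone and 291 CPM in coculture. Pecam1 and Egfl7 were tested and did not differ past the threshold. Kdr, with 65, 74 and 68 counts alone and 2, 1 and 2 in coculture, met the filter on low counts only through the lone cultures. With at least 10 counts in every library, 0 endothelial markers were called lower. Of 10 kidney epithelial markers, 3 were tested, with Lrp2 lower, a sum of 6.59 to 8.69 CPM alone and 5.65 to 6.05 CPM in coculture, and Umod and Slc34a1 at 0. Lrp2 also had few counts, with 49, 38 and 27 alone and 8, 4 and 11 in coculture. The part of these marker differences in the results below was not tested.

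A call required more than a 2-fold difference together with an adjusted p under 0.05 in edgeR. Of 13088 genes tested, 7.78% were called lower and 3.87% higher in coculture. Among the 8 members, 7 passed the filter on low counts, and 4 of these were called lower (Cxcl9, Cxcl10, Cxcl11 and Cxcl12) and 0 higher. DESeq2 gave the same counts of 4 and 0. Without the fold limit, the adjusted p of edgeR was below 0.05 for 4 members lower and 2 higher (Cxcl14 and Cx3cl1). Of all tested genes, 20.0% were lower and 17.1% higher by that measure. The unadjusted p gave the same 4 and 2 members, and 3116 genes lower and 2910 higher of the 13088 tested. The median log2 fold change over the 7 members was −1.13, against 0.00 over all genes tested. Cxcl9 met the filter only through its level in the lone cultures, so these counts describe the members and are not a test of them. The CPM ranges of both groups did not overlap in any of the 7 members tested, which was true of 50.4% of all tested genes.

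**Figure D1:**
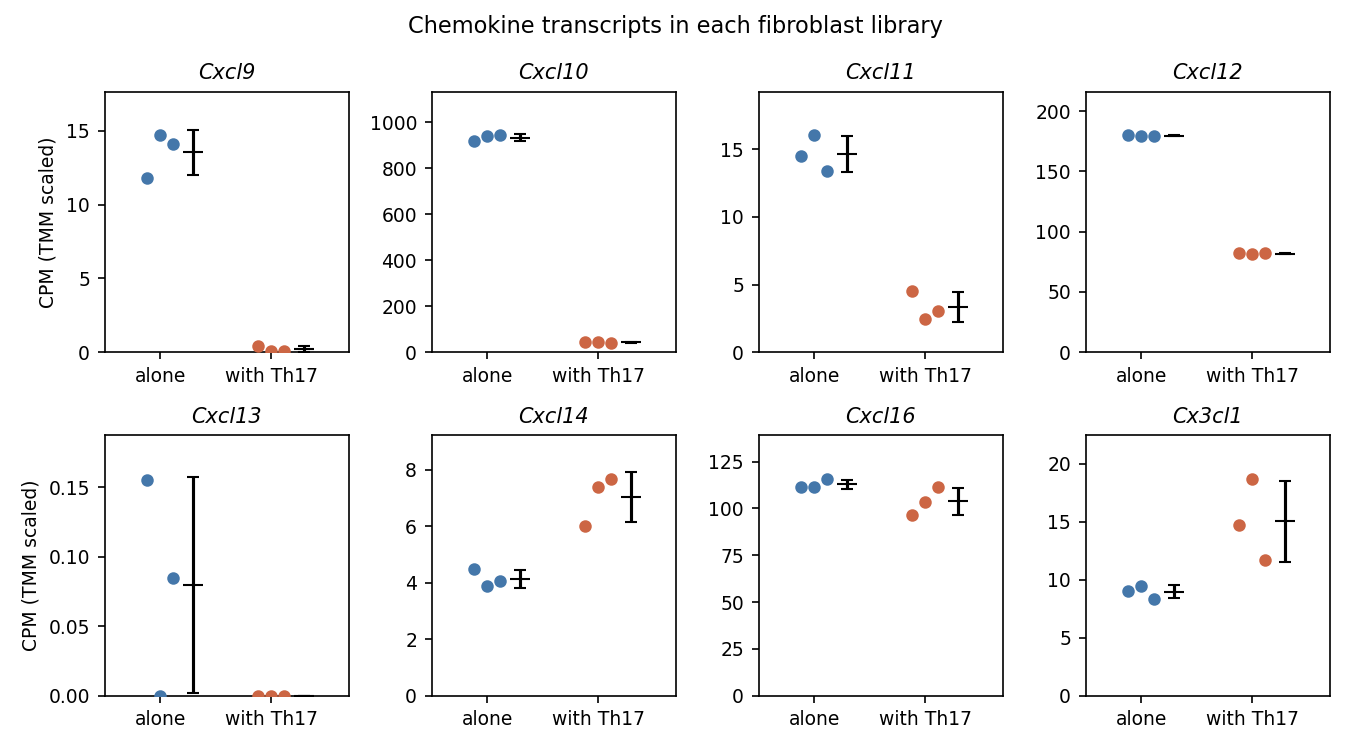
Each panel plots the CPM (y axis, TMM-scaled) of 1 member in the 6 libraries, with 3 libraries of fibroblasts alone and 3 of fibroblasts with Th17 cells as points and the group mean ± SD as bars. Cxcl10 sat between 916.9 and 943.0 CPM alone and between 37.9 and 45.8 CPM in coculture, and Cxcl16 was the member whose groups lay closest relative to their level.

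Coculture was accompanied by a lower level of all 3 CXCR3 ligands, although by unequal folds. Cxcl10 was by far the most abundant of them, Cxcl9 fell by the widest fold, and Cxcl11 by the narrowest. Cxcl9 and Cxcl10 recruit CXCR3-bearing lymphocytes to sites of type 1 inflammation, and Cxcl11 is the ligand that binds CXCR3 most tightly.

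Cxcl10 (ENSMUSG00000034855, chromosome 5, positions 92346638 to 92348889, minus strand) had 11815, 11899 and 11155 counts in the lone cultures and 616, 546 and 498 counts with Th17 cells. The 3 cocultured libraries were all far below the lowest lone culture, and the spread within a group was small in both. Its mean level was 933 ± 14.3 CPM (SD, n = 3) alone and 42.2 ± 4.0 CPM (SD, n = 3) in coculture, a log2 fold change of −4.47 (SE 0.082, 95% interval −4.65 to −4.28; adjusted p = 8.557e-09), or 22.1-fold lower. A gene on the opposite strand, Art3, overlaps 133 exon bases of Cxcl10, and whether counting used strand was not stated. Art3 itself had 36, 46 and 33 counts alone and 16, 31 and 26 with Th17 cells, far fewer than Cxcl10.

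Cxcl9 (ENSMUSG00000029417, chromosome 5, 92321347 to 92328079, minus strand) had 152, 186 and 167 counts alone and 6, 1 and 1 counts with Th17 cells. Nearly all of its signal was therefore in the lone cultures, and replicate 1 of the coculture carried most of the counts left. Its level was 13.5 ± 1.53 CPM (SD, n = 3) alone and 0.200 ± 0.213 CPM (SD, n = 3) in coculture, with a log2 fold change of −5.99 (SE 0.361, 95% interval −6.81 to −5.17; adjusted p = 2.107e-06). The summed counts of 505 and 8 gave a 66.4-fold lower level, with an exact counting interval of 33.5 to 155 that covers counting error only. Without replicate 1 of the coculture, the other 2 cocultured libraries had 1 count each, and the level was at least 57.5-fold lower against a floor of 3 counts per library. The fold of Cxcl9 thus rested on few counts, whereas its direction was shared by all 3 cocultured libraries.

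Cxcl11 (ENSMUSG00000060183, chromosome 5, 92359544 to 92365485, minus strand) had 187, 203 and 158 counts alone and 61, 31 and 40 counts with Th17 cells. The groups did not overlap, and the cocultured libraries varied more than the lone ones relative to their mean. The level was 14.6 ± 1.34 CPM (SD, n = 3) alone and 3.34 ± 1.08 CPM (SD, n = 3) in coculture, a log2 fold change of −2.13 (SE 0.211, 95% interval −2.60 to −1.65; adjusted p = 5.768e-05), or 4.36-fold lower. The intervals of the 3 ligands did not meet. The annotation (GENCODE M21) lists mouse Cxcl11 as a polymorphic pseudogene, a gene that is intact in some strains and disrupted in others. Which form these fibroblasts carried was not tested. The opposite-strand pseudogene Gm2673 overlaps 1582 of its exon bases, so the counts of Cxcl11 are uncertain to that extent.

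**Figure D2:**
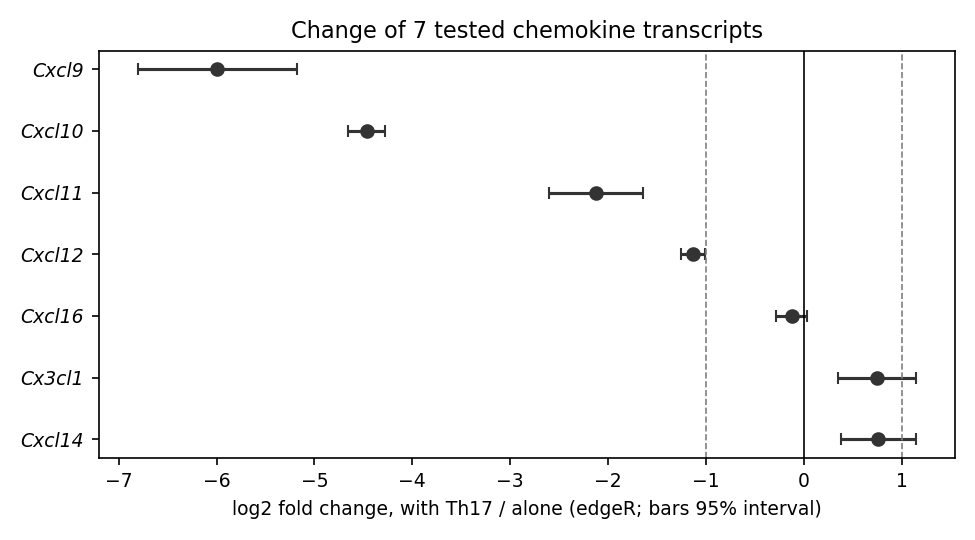
Log2 fold changes (coculture against lone culture, x axis) of the 7 tested members are plotted as points with 95% intervals as bars, and dashed lines mark the fold limit. Cxcl9 at −5.99, Cxcl10 at −4.47 and Cxcl11 at −2.13 lie to the left, Cxcl12 lies at −1.13, the interval of Cxcl16 spans 0, and Cxcl14 and Cx3cl1 lie to the right at 0.76 and 0.75.

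The 3 ligand genes are neighbours, spanning 44.1 kb from the start of Cxcl9 to the end of Cxcl11. The other genes of the table within 250 kb, a window chosen after the values had been seen, numbered 14, and 10 were tested. Of these, 2 were called lower (Scarb2 and Ccdc158) and 0 higher, against 7.78% and 3.87% of all genes tested. Scarb2, a lysosomal membrane protein, had a log2 fold change of −1.01 (adjusted p = 9.747e-07), and Ccdc158 of −1.95 (adjusted p = 0.003057). By adjusted p alone 6 neighbours were lower, 1 was higher and 3 did not differ past the threshold. Over all genes tested, 20.0% were lower and 17.1% higher by adjusted p alone. No tested neighbour had a fitted fold as wide as Cxcl11, the least changed of the 3 ligands. Ccdc158 (SE 0.373) came close, with 33, 20 and 18 counts alone and 8, 5 and 6 with Th17 cells. Its SE range overlapped that of Cxcl11, so these folds were not separated. Cxcl13 lies on the same chromosome 3591.5 kb beyond the group.

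**Figure D3:**
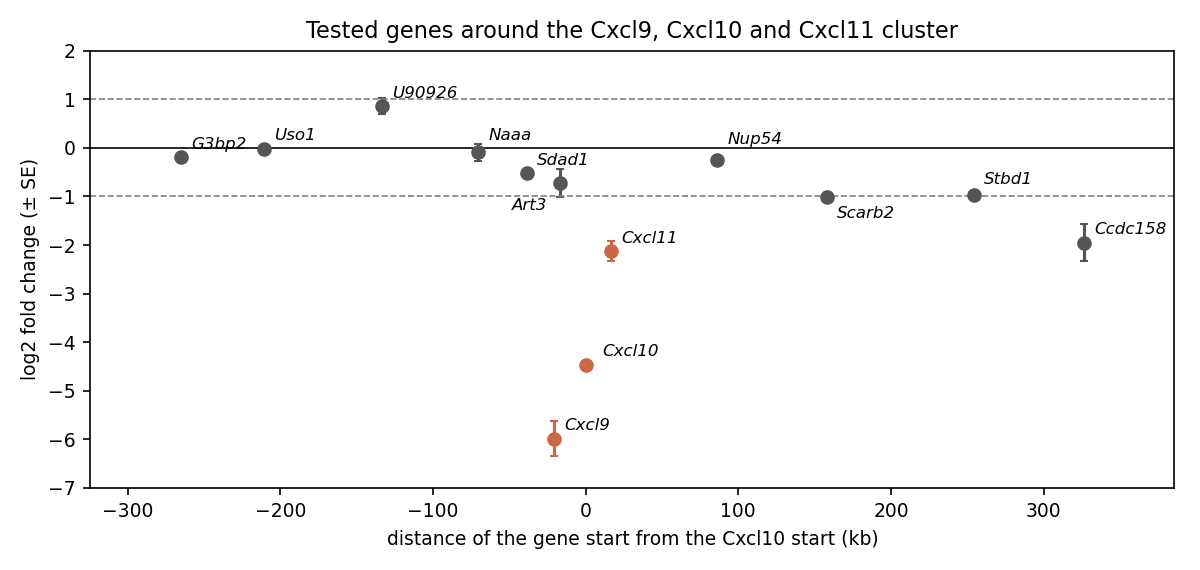
Log2 fold changes (y axis) of the tested genes within 250 kb of the 3 CXCR3 ligand genes are plotted, with SE bars, against the distance of each gene's start from that of Cxcl10 (x axis, kb). The points of the 3 ligands at −5.99, −4.47 and −2.13 lie below those of the tested neighbours. The lowest neighbour is Ccdc158 at −1.95, whose SE bar overlaps that of Cxcl11.

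Cxcl12 (ENSMUSG00000061353, chromosome 6, 117168535 to 117181367, plus strand), which retains hematopoietic cells in marrow and acts through CXCR4, had 2317, 2274 and 2118 counts alone and 1106, 1034 and 1078 with Th17 cells. Its libraries were the most uniform of the members, and the groups were far apart. The level was 179.5 ± 0.393 CPM (SD, n = 3) alone and 81.8 ± 0.531 CPM (SD, n = 3) in coculture, a log2 fold change of −1.13 (SE 0.0557, 95% interval −1.26 to −1.01; adjusted p = 5.755e-07), or 2.19-fold lower. This fold lay close to the limit of 2, and a test of the fold against that limit gave an adjusted p of 0.07448 (glmTreat in edgeR). By limma on log2(FPKM + 1) the log2 fold change was −0.97, short of the fold limit.

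Cxcl14 (ENSMUSG00000021508, chromosome 13, 56288647 to 56296551, minus strand), a chemokine of epithelia and stroma, had 58, 49 and 48 counts alone and 81, 94 and 101 with Th17 cells. Every cocultured library was above every lone one. Its level was 4.14 ± 0.324 CPM (SD, n = 3) alone and 7.03 ± 0.885 CPM (SD, n = 3) in coculture, a log2 fold change of 0.76 (SE 0.168, 95% interval 0.38 to 1.14; adjusted p = 0.006718), which is 1.69-fold and under the fold limit.

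Cxcl13, which attracts B cells through CXCR5, had 2, 0 and 1 counts alone and 0 in each cocultured library. Both groups were at or under the floor of 3 counts per library, which stands for 0.223 to 0.254 CPM, so the gene was not tested and has no fold. Its expression was not detectable at this depth in the cocultures.

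The membrane-bound members moved differently from the CXCR3 ligands. Cxcl16 (ENSMUSG00000018920, chromosome 11, 70453983 to 70459984, minus strand), a ligand of CXCR6 and a scavenger receptor, had 1435, 1411 and 1370 counts alone and 1299, 1315 and 1463 with Th17 cells. The CPM ranges of 111.4 to 115.8 alone and 96.6 to 111.3 in coculture came within a fraction of a CPM of each other. The log2 fold change was −0.12 (SE 0.0696, 95% interval −0.28 to 0.04; adjusted p = 0.2038), so no difference was called. Zmynd15 on the opposite strand overlaps 552 exon bases of Cxcl16 and had 120, 110 and 107 counts alone and 85, 65 and 55 with Th17 cells.

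Cx3cl1 (fractalkine, ENSMUSG00000031778, chromosome 8, 94772009 to 94782423, plus strand), the ligand of CX3CR1 on monocytes and lymphocytes, had 116, 120 and 99 counts alone and 198, 238 and 154 with Th17 cells. The lowest cocultured library lay above the highest lone one, and the cocultured libraries were widely spread. The level was 8.95 ± 0.557 CPM (SD, n = 3) alone and 15.0 ± 3.5 CPM (SD, n = 3) in coculture, a log2 fold change of 0.75 (SE 0.175, 95% interval 0.35 to 1.14; adjusted p = 0.008984), which is 1.68-fold and under the fold limit.

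To compare levels between genes, CPM was divided by the merged exon length in kb. The deposited FPKM values were not used for this, because the length that they imply for Cxcl10, 4765 bases, exceeds the 2252 bases that the gene spans. On this per-length scale, the order in the lone cultures was Cxcl10 (414 ± 6.34, SD, n = 3), Cxcl16 (37.4 ± 0.843), Cxcl12 (22.0), Cxcl9 (4.49 ± 0.509), Cxcl11 (3.86 ± 0.354), Cx3cl1 (2.28 ± 0.142), Cxcl14 (2.27 ± 0.177) and Cxcl13 (0.0695). The libraries of Cxcl9 and Cxcl11 overlapped, as did those of Cx3cl1 and Cxcl14. In coculture Cxcl16 led (34.3 ± 2.44), followed by Cxcl10 (18.7 ± 1.78) and Cxcl12 (9.93 to 10.1 over the 3 libraries), and Cxcl9 was lowest of the 7 with counts (0.0664 ± 0.0706). Cxcl14 (3.85 ± 0.484) and Cx3cl1 (3.83 ± 0.891) again overlapped, above Cxcl11 (0.88 ± 0.285).

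The mix of chemokine transcripts therefore changed as well as the amount. Cxcl10 made 85.1% to 85.2% of the per-length sum of the 8 genes in the lone cultures and 23.5% to 28.7% in coculture, while Cxcl16 went from 7.54% to 7.79% up to 45.2% to 51.4%. The sum itself was 479 to 492 alone and 70.8 to 72.6 in coculture. Among the CXCR3 ligands, Cxcl10 kept the greatest share, 97.9% to 98.1% alone and 93.8% to 96.6% in coculture. The share of Cxcl11 rose from 0.824% to 0.993% alone to 3.26% to 5.54% in coculture, since it fell by less. The ratio of Cxcl10 to Cxcl12 was 18.5 to 19.1 alone and 1.68 to 2.01 in coculture. These shares are descriptions of values already compared above, and they carry no test of their own.

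**Figure D4:**
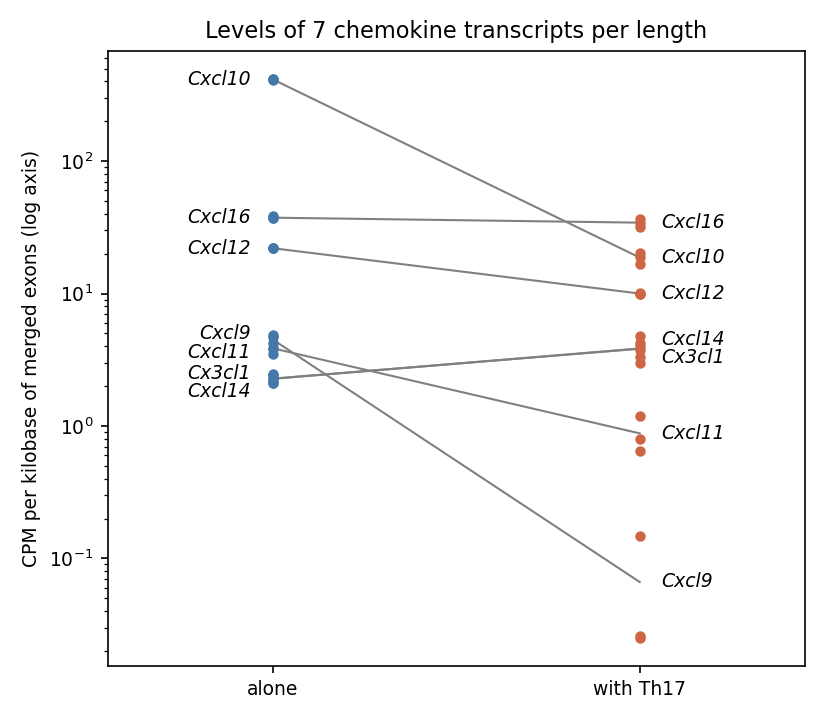
TMM-scaled CPM per kb of merged exons (log y axis) is plotted for the members with counts, as group means joined by lines from fibroblasts alone to fibroblasts with Th17 cells, with a point for each library. Cxcl10 goes from 414 to 18.7 and passes below Cxcl16, which goes from 37.4 to 34.3.

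Of the 9 receptors and scavengers of these chemokines on the list, only Ackr3 had enough counts to be tested. Ackr3, which takes up Cxcl12 and Cxcl11 without G protein signalling, had 140, 134 and 130 counts alone and 238, 261 and 193 with Th17 cells. All cocultured libraries were above the lone ones, with a log2 fold change of 0.70 (SE 0.139; adjusted p = 0.003671), under the fold limit. Cxcr3 and Ackr4 had 0 counts in all 6 libraries, and Cxcr4, Cxcr5, Cxcr6, Cx3cr1, Ackr1 and Ackr2 had at most 7 in any library.

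Among 10 proteases that trim or shed these chemokines, 9 were tested, with 2 called lower and 0 higher, and 5 were lower and 2 higher by adjusted p alone. Without coculture replicate 3, 1 protease (Mmp9) was called higher. Dpp4, which removes the amino-terminal residues of CXCR3 ligands and Cxcl12, had 39, 51 and 50 counts alone and 5, 4 and 2 with Th17 cells (log2 fold change −3.70, SE 0.354; adjusted p = 4.517e-05). The other was Ctss, a cathepsin that macrophages also express, at −4.39 (SE 0.4156; adjusted p = 4.214e-05). Both Dpp4 and Ctss met the count filter only through the lone cultures. With at least 10 counts in every library, 0 proteases were called lower. Adam10, a sheddase of Cxcl16 and Cx3cl1, was at −0.09 (adjusted p = 0.257), and Adam17, another sheddase, at −0.48 (adjusted p = 0.0005101).

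Interferons are known inducers of the CXCR3 ligands. Of 17 interferon signalling genes, 16 were tested and 5 were called lower and 0 higher, with 7 lower and 2 higher by adjusted p or by unadjusted p alone and a median log2 fold change of −0.21. Irf7, a transcription factor of the type I interferon response, was at −1.92 (SE 0.0655; adjusted p = 7.993e-08). Usp18 (−1.63), Irf1 (−1.54) and Stat2 (−1.30), named after their values were seen, were also called lower. Ifngr1, a subunit of the interferon gamma receptor, was at −0.06 and was not called, and the other subunit, Ifngr2, was at 0.99 (adjusted p = 1.857e-06) and was called higher without replicate 2 of the lone cultures.

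Of 16 further genes that interferon gamma induces, 14 were tested, and 13 were called lower and 0 higher, with none higher at an unadjusted p below 0.05 in edgeR and none called higher by DESeq2. Their median log2 fold change was −2.32. Iigp1, an immunity-related GTPase, was at −3.89 (SE 0.0932; adjusted p = 2.075e-08) and Gbp5, a guanylate-binding protein, at −3.69 (SE 0.0954; adjusted p = 2.47e-08). The log2 fold change of Cxcl10 exceeded both, and that of Cxcl11 was close to the median. Ifng had 0 counts in all 6 libraries and Ifnb1 had 4, 6 and 4 counts alone and 0, 4 and 3 with Th17 cells; both genes were chosen after their values were seen.

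Other chemokine families did not share this direction throughout. The CXCR2 ligand list, named for chemokines that attract neutrophils, held 7 genes. All 5 tested were called higher, with a median log2 fold change of 1.86. Ppbp was at 3.92 (SE 0.307) and Cxcl3 at 3.24 (SE 0.1353). Ppbp, with 3, 7 and 3 counts alone and 71, 66 and 75 in coculture, met the count filter only through the cocultures. Pf4, named after its values were seen, was not tested. It had 7, 10 and 8 counts alone and 0 in each cocultured library. With at least 10 counts in every library, 4 of the list were called higher, and with no count filter 1 was called lower. Of 18 CC chemokines, 11 were tested, with 2 called higher and 6 lower and a median of −1.78. Ccl11, an eosinophil attractant, was the highest of them at 4.65 (SE 0.1305; adjusted p = 3.722e-08), and Ccl8 was at 2.12. Ccl6 had 0 counts in the cocultures, so its fitted fold is no measured size, and Ccl3 was at −3.09. Most of the 6 lower CC chemokines met the count filter only through the lone cultures. With at least 10 counts in every library, 1 CC chemokine was called higher and 1 lower. By limma on log2(FPKM + 1), 3 were called lower.

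The lymphotoxin and NF-kB list, which holds inducers of Cxcl13, had 14 genes, all tested, with 0 called in either direction by edgeR. At an unadjusted p below 0.05 in edgeR, 4 were higher and 2 lower. Of all 13088 genes tested, 2910 were higher and 3116 lower by that measure. DESeq2 also called 0. Nfkb1, at 0.996 (SE 0.0588; adjusted p = 1.853e-06), lay just under the fold limit and was called higher without lone replicate 2 and without coculture replicate 1. Of 15 lymphoid and marrow stroma genes, 12 were tested, with 1 called higher and 3 lower. Kitl, a growth factor of stem cell niches, was higher at 1.49 (SE 0.1273), while the adhesion molecules Icam1 (−3.77, SE 0.1733) and Vcam1 (−3.01, SE 0.0577) and the B cell factor Tnfsf13b (−1.18) were lower.

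**Figure D5:**
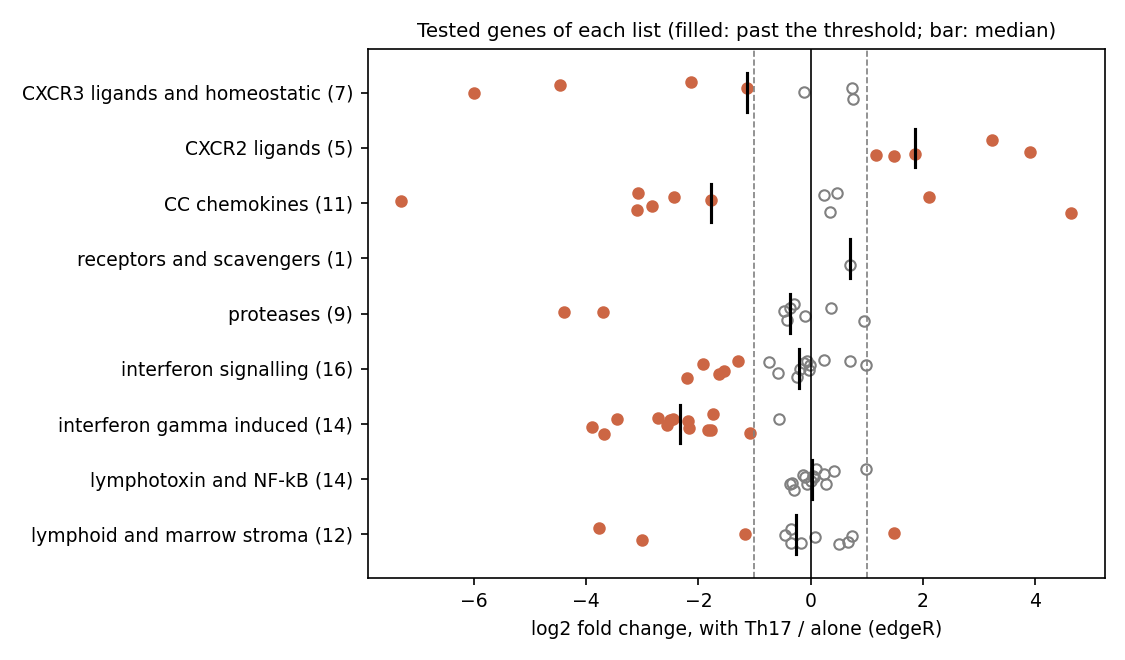
Log2 fold changes (x axis) of the tested genes of each pathway list are plotted as points, 1 row per list, filled where called, with the list median as a bar and the members in the top row; the far left CC chemokine is Ccl6, whose fitted value is no measured size. The CXCR2 ligands lie to the right (median 1.86), the interferon gamma-induced genes to the left (median −2.32), and the members have a median of −1.13.

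Genes whose pattern over the 6 libraries was most like that of a member were found by the root mean square distance between centred log2 CPM values, among 10037 genes averaging 100 counts or more in at least 1 group. For Cxcl10 these were Phf11b (0.094), Fbn2 (0.145) and Adgrd1 (0.149). Cxcl9 was nearest to Adgrd1 (0.482), Plekha4 (0.542) and Cxcl10 (0.622), and its distances were longer than those of the other members. Cxcl11 was nearest to Gbp6 (0.156), Nmi (0.161) and Aldh1b1 (0.173), and Cxcl12 to Top2a (0.027), Cd200 (0.028) and Eif2ak2 (0.035). Cxcl16 lay nearest to Nup93 (0.019) and Cx3cl1 to Zswim1 (0.040), with Ackr3 the next for Cx3cl1 (0.088). With 2 groups, such likeness reflects mostly the size of the group difference, and it says nothing of shared control.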

How the data were processed

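The sequencing used a VAHTS library kit and a NovaSeq instrument. Read filtering (Seqtk), alignment (HISAT2) and counting of fragments per gene (StringTie) were done by the authors, and the submitters' processing notes name HISAT2 2.0.4, StringTie 1.3.3b and mm10. The authors deposited raw counts and FPKM for each gene and library. The deposited FPKM imply 1 length per gene in all libraries (10223 genes checked, 100% within 1%), so they carry no TMM factor, but that length often differs from the merged exon length. Columns of other samples numbered 0, and strand use was not stated.

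Groups came from sample titles. Counts were fitted in R 4.3.3 with edgeR 4.0.16 (filterByExpr with a minimum count of 10, TMM, glmQLFit, glmQLFTest, Benjamini-Hochberg adjustment over all 13088 genes tested). A call needed an adjusted p below 0.05 and a fold above 2. The standard error is the log2 fold change divided by the square root of F, and intervals are at 95%. Total counts per library of 12050529 to 13209581 set the counting precision. The intervals of log2 fold changes include the spread between libraries, whereas the interval on summed counts and the floors cover counting error only. On data simulated from these libraries (12958 genes, 200 changed), edgeR recovered 98.5% of the changed genes and called 9 unchanged ones. These simulated calls used the adjusted p alone, without the fold limit. The simulation changed far fewer genes than differed here, in balanced directions and with the same spread for all genes. Its recovery rate therefore need not hold for these data. Positions are from the deposited table on GRCm38, annotation is GENCODE M21, and promoters are RefSeq GRCm38.p6. Figures used Python 3.11.15 and matplotlib 3.10.9.

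The members and lists were chosen with earlier results of these data known. Genes named are the members, their receptors, up to 4 genes per list with the highest and lowest fold past the threshold, and the 3 most similar patterns, with others chosen after their values were seen (Adam10, Adam17, Mmp9, Ifngr1, Ifngr2, Nfkb1, Tnfsf13b and those marked in the text). The values of 1 gene that this rule selects are not reported here. Alternatives were DESeq2 1.42.0, other size factors, other count filters, limma 3.58.1 on log2(FPKM + 1) and log2(FPKM + 0.1), a replicate block, no fold limit, glmTreat against the fold limit, and leaving out each library. Same-numbered libraries of both groups had deviations correlated at 0.016, −0.026 and −0.004, so the numbers did not pair them.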

Additional observations from a re-analysis of the deposited data

How the results depend on the processing

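The 4 members called lower were called in every leave-one-library-out fit (4 to 4, with 0 to 0 higher). The called count of all genes ranged from 498 to 522 higher and 978 to 1029 lower, and that of the pathway genes from 8 to 10 higher and 29 to 29 lower. With a replicate block the members lower numbered 4, and 1495 genes were called, of which 1473 were called without it; since the numbers did not pair the libraries, the block is not a test of the effect. DESeq2 called 1469 genes, 1458 of them shared.

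Without the fold limit, 2 members were higher, 2244 of all genes were higher and 2612 lower, and 21 pathway genes were higher. With limma on log2(FPKM + 1) 224 genes were higher and 402 lower, and with glmTreat 243 and 548, against 506 and 1018. In those fits and with at least 10 counts in every library, 3 members were lower: Cxcl12 fell short of the fold limit under limma and of the adjusted p under glmTreat, and Cxcl9 was removed by the count filter. Over the alternatives other than glmTreat, which tests against the fold limit and not against 0, the log2 fold change of Cxcl9 ranged from −7.28 to −2.25, Cxcl10 from −4.53 to −4.26, Cxcl11 from −2.41 to −1.19, Cxcl12 from −1.14 to −0.97, Cxcl14 from 0.61 to 0.86 and Cx3cl1 from 0.56 to 0.90, each with an adjusted p below 0.05. Cxcl16 ranged from −0.17 to −0.06 and was never called (adjusted p from 0.0575 to 0.550). Under glmTreat the adjusted p was 0.07448 for Cxcl12 and 1 for Cxcl14, Cxcl16 and Cx3cl1. Depth limits Cxcl13, and the few cocultured counts of Cxcl9 limit its fold.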
